A study of Mus musculus with 4 samples.

Results

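Laminins, nidogens and perlecan are secreted proteins of the basement membrane, the thin sheet of matrix under endothelium and around mural cells and glia. The members described here were the rows of the deposited table whose gene symbol was Lama1, Lama2, Lama4, Lama5, Lamb1, Lamb2, Lamc1, Nid1, Nid2 or Hspg2, which gave 10 of the 24873 genes listed. A laminin is assembled in the cell from an alpha, a beta and a gamma chain, so the chains a cell transcribes set which laminins it can secrete. In the brain the endothelial basement membrane is known for alpha-4 and alpha-5 laminins, whereas alpha-1 and alpha-2 laminins are known from the meningeal and astroglial side of vessels. Nidogens link the laminin network to type IV collagen, and perlecan is a heparan sulfate proteoglycan that binds both.

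The libraries came from brain cells of Cdh5cre;Mgpflox/flox mice, in which a tamoxifen-activated Cre under the VE-cadherin promoter deletes Mgp, the gene of matrix Gla protein. For the 2 tamoxifen libraries, mice 10 weeks old were injected with 75 mg/kg on each of 5 days. The 2 control libraries came from mice of the same genotype and age without tamoxifen, and all cells were taken on day 9. Each library pooled cells of 3 mice, and the study used males and females together, with C57BL/6J named as the strain for cell isolation. The sample labels call the cells tdTomato+, whereas the series design and the study's methods describe a CD31+CD45- sort. All groups carried the floxed allele and the Cre, and the controls received no drug, so tamoxifen itself and the deletion cannot be told apart. The columns of the table bear the letters C and A, and since the labels give no A, the C columns were taken for control and the A columns for arteriovenous malformation, the lesion that develops after tamoxifen. Values are normalized counts, meaning reads on a gene divided by a factor for the library. Reads on genes numbered 37475154 and 41025014 in control replicates 1 and 2, and 35387438 and 49799321 in tamoxifen replicates 1 and 2. The fewest reads on any member in any library were 744.

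Mgp, the deleted gene, had 1094 and 1352 normalized counts in the controls and 945 and 909 under tamoxifen. Both tamoxifen values were below both control values, but the difference did not pass the test (log2 fold change -0.39, SE 0.18, limma with Benjamini-Hochberg (BH) adjustment over all genes tested, adjusted p = 0.0986). It was 0.08 with libraries rescaled to equal totals, and -0.65 after quantile normalization, where it passed. Endothelial markers were abundant in every library, with Kdr at 155506 and 147388 normalized counts in the controls and 28812 and 17596 under tamoxifen. The summed level of 10 endothelial markers was 804719 and 826645 in the controls and 150657 and 79495 under tamoxifen, and all 10 were called lower. In bulk libraries, fewer cells of a type and less RNA per cell cannot be told apart.

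The laminin chains divided by direction. Lama1, Lama2 and Lamb1 rose under tamoxifen, Lama4, Lama5, Lamb2 and Hspg2 fell, and Lamc1, Nid1 and Nid2 did not pass the test, although quantile normalization added Lamc1 and Nid1 to those that passed and removed Hspg2, and equal totals added Nid1. The test ran on log2(normalized count + 1) in the 20485 genes whose mean reached 10 normalized counts, and a gene was called where the BH-adjusted p was under 0.05 and the log2 fold change exceeded 1 in size. All 10 members passed that filter. Called higher were 3 of the 10 members, beside 28.6% of all genes tested. Called lower were 4 of the 10, beside 16.0% of all genes tested. By the adjusted p alone 7 of the 10 passed, beside 58.9%, and the groups did not overlap for 8 of the 10, beside 82.3%. With 10 genes, these counts are a description and were not tested. The median log2 fold change was -0.23 over the members and 0.05 over all genes tested, and the members' median was 0.24 with equal totals and 0.58 after quantile normalization. Of the 9151 genes called in all, 64.1% were higher. Other scalings changed that split, with 79.7% of calls higher when totals were made equal and 45.6% under quantile normalization. The count of all genes called was 5024 without tamoxifen replicate 1, 4147 without tamoxifen replicate 2 and 5934 with a filter at a mean of 100. For a single value, the smallest two-sided p that an exact permutation test can reach with 2 libraries a group is 0.333, and limma goes below it by pooling the spread of all genes.

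**Figure D1:**
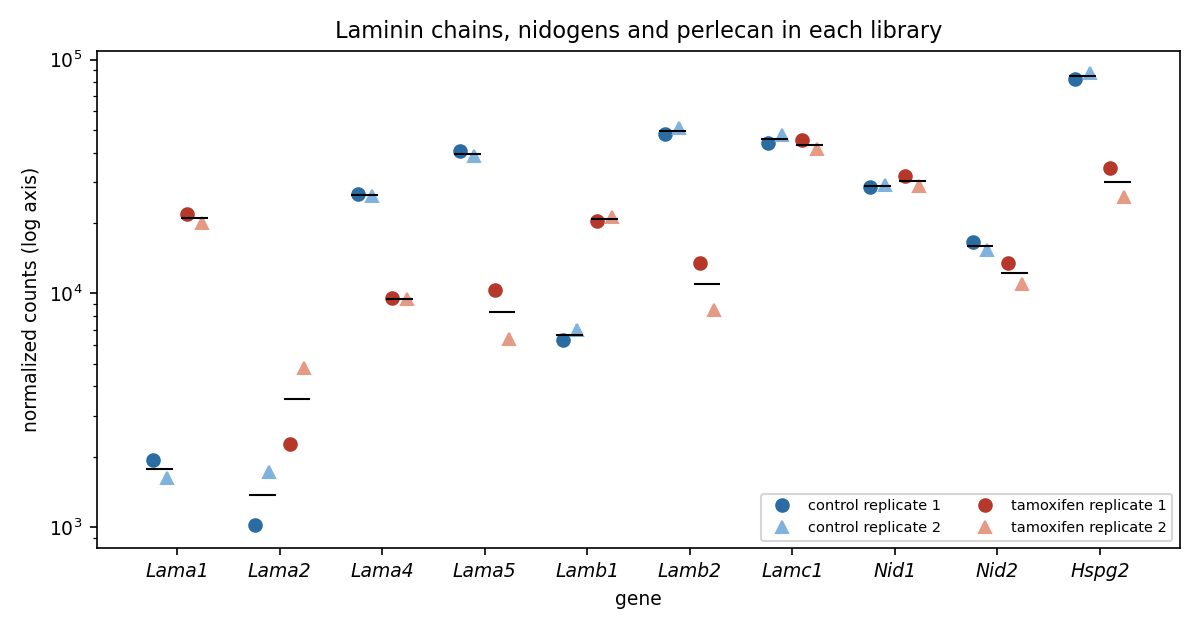
Normalized counts (log axis) of the 10 genes in each library, with a point for each library and a black line at each group mean. As deposited, Lama1, Lama2 and Lamb1 lay higher in both tamoxifen libraries, Lama4, Lama5, Lamb2, Nid2 and Hspg2 lay lower (Nid2 changed sign under other scalings), and the groups overlapped for Lamc1 and Nid1.

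Among the alpha chains, Lama1 changed most. The gene of the alpha-1 chain, which is the chain of the first basement membranes of the embryo, lies on chromosome 17 from 68004223 to 68129642 (GRCm39, as for all gene positions here). It had 1929 and 1629.6 normalized counts in the controls and 21866 and 19985 under tamoxifen. Both tamoxifen libraries were far above both controls, and the replicates of each group lay close together. The log2 fold change was 3.56 (SE 0.16, limma, BH-adjusted p = 7.45e-06). Over the 14 alternative settings it ranged from 3.44 to 4.03, and the adjusted p stayed under 0.05 in all 14.

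Lama2 encodes the alpha-2 chain, the laminin chain of muscle, Schwann cell and astroglial basement membranes (chromosome 10 from 26856032 to 27495754). Its values were 1019 and 1716 normalized counts in the controls and 2275 and 4813 under tamoxifen. The groups did not overlap, but replicate 2 was well above replicate 1 in each group, so the spread within groups was wide. The log2 fold change was 1.32 (SE 0.37, limma, BH-adjusted p = 0.0161). It was 0.78 without tamoxifen replicate 2 and 1.86 without tamoxifen replicate 1, and in neither case did it pass (limma, BH-adjusted p = 0.263 and 0.0801). Without control replicate 1 it passed the adjusted p but at 0.95 fell under the size limit for a call. Without the mean-variance trend the adjusted p was 0.0957, and it was under 0.05 in 11 of the 14 alternatives (limma, edgeR and DESeq2, BH-adjusted p from 1.57e-10 to 0.263).

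Lama4 encodes the alpha-4 chain, found in the basement membrane of all endothelium (chromosome 10 from 38841141 to 38998403). It had 26629 and 26198 normalized counts in the controls and 9571 and 9427 under tamoxifen. The replicates were nearly equal within each group, and both tamoxifen values were well below both controls. The log2 fold change was -1.48 (SE 0.18, limma, BH-adjusted p = 0.00030). After quantile normalization it was -0.82, still past the adjusted p but under the size limit for a call.

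Lama5 encodes the alpha-5 chain, which appears in endothelial basement membranes as vessels mature (chromosome 2 from 179818166 to 179867712). Its values were 40448 and 38827 normalized counts in the controls and 10353 and 6358 under tamoxifen. The tamoxifen libraries differed from each other more than the controls did, and both were below both controls. The log2 fold change was -2.29 (SE 0.26, limma, BH-adjusted p = 0.000219), with -2.64 to -1.60 over the alternatives, all past the adjusted p.

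The beta chains moved in opposite directions. Lamb1, on chromosome 12 from 31315030 to 31379658, encodes the beta-1 chain, the beta chain of early basement membranes. It had 6342 and 6939 normalized counts in the controls and 20438 and 21261 under tamoxifen, with replicates close together and groups far apart. This was a log2 fold change of 1.65 (SE 0.17, limma, BH-adjusted p = 0.000149). Lamb2, on chromosome 9 from 108356935 to 108367729, encodes the beta-2 chain, which takes the place of beta-1 in mature vascular, glomerular and synaptic basement membranes. It had 48269 and 51155 normalized counts in the controls and 13465 and 8451 under tamoxifen. Both tamoxifen values were below both controls, and tamoxifen replicate 2 was the lowest library. In log2 terms the change was -2.22 (SE 0.26, limma, BH-adjusted p = 0.000274). Both beta chains kept their direction and an adjusted p under 0.05 in all 14 alternatives.

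Lamc1 encodes the gamma-1 chain, the partner in most laminins, and lies on chromosome 1 from 153094597 to 153208774. Its values were 43783 and 47633 normalized counts in the controls and 45287 and 41259 under tamoxifen. The groups overlapped, with tamoxifen replicate 1 between the controls. As deposited, the log2 fold change was -0.08 (SE 0.25, limma, BH-adjusted p = 0.801). This value depended on the scaling of the libraries, since it was 0.39 with equal totals and 1.05 with quantiles made equal. Those scalings moved the median of all genes tested by 0.47 and -0.28. Relative to the median of all genes, Lamc1 stood at -0.13 as deposited, -0.13 with equal totals and 1.28 after quantile normalization.

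In the deposited scaling the nidogens changed less than the laminin chains that were called, which after quantile normalization no longer held for Nid1 (0.93) against Lama4 (-0.82). Nid1 (chromosome 13 from 13612071 to 13686860), which binds the gamma-1 chain, had 28612 and 29121 normalized counts in the controls and 31832 and 28656 under tamoxifen. Tamoxifen replicate 1 was the highest library and tamoxifen replicate 2 lay between the controls, so the groups overlapped. Its log2 fold change was 0.07 (SE 0.22, limma, BH-adjusted p = 0.811). It was 0.54 with equal totals and 0.93 after quantile normalization, where it passed (limma, BH-adjusted p = 0.0278 and 0.00298, within a range of 0.00298 to 0.959 over its alternatives), and -0.01 without tamoxifen replicate 1. Nid2 (chromosome 14 from 19801298 to 19861855), its paralog with more restricted tissue expression, had 16609 and 15254 normalized counts in the controls and 13526 and 10917 under tamoxifen. Both tamoxifen values were below both controls by a small margin. Its log2 fold change was -0.39 (SE 0.19, limma, BH-adjusted p = 0.116), and it was 0.08 with equal totals and 0.23 after quantile normalization.

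Hspg2 encodes perlecan, whose heparan sulfate chains hold growth factors in the vessel wall (chromosome 4 from 137196079 to 137298231). It had 82319.5 and 87309 normalized counts in the controls and 34293 and 25716 under tamoxifen. The groups were well separated, with a log2 fold change of -1.51 (SE 0.28, limma, BH-adjusted p = 0.00240). The call was lost after quantile normalization, where the log2 fold change was -0.38 (limma, BH-adjusted p = 0.137), and narrowly without tamoxifen replicate 2, with -1.31 (limma, BH-adjusted p = 0.0514). Over the 14 alternatives the BH-adjusted p ranged from 1.17e-10 to 0.137, and in 12 of them it passed.

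Levels of different genes were compared per kilobase of the union of exons, which corrects for length only in part. That union exceeds the longest transcript for Lama4 (15715 against 7871 bases) and equals it for Lama5 (11448). In the controls the order of group means was Lamb2 (8164 normalized counts per kb), Hspg2 (5323), Lamc1 (4038), Nid1 (3849), Lama5 (3462), Nid2 (2453), Lama4 (1681), Lamb1 (619), Lama1 (183) and Lama2 (76.7). Lamc1 and Nid1 overlapped in that order, with 3868 and 4208 per kb for Lamc1 and 3815 and 3883 for Nid1, and the ranges of all other neighbours were apart. Under tamoxifen Nid1 (4033 per kb) and Lamc1 (3823) led, followed by Lama1 (2155), Lamb1 (1944), Hspg2 (1883), Nid2 (1882), Lamb2 (1799.7), Lama5 (729.9), Lama4 (604) and Lama2 (199). The ranges of Nid1 and Lamc1 overlapped there, as did those of Lamb1, Hspg2, Nid2 and Lamb2, and those of Lama5 and Lama4. Lama1, at 2251 and 2058 per kb, was apart from Lamb1 next to it but overlapped Hspg2, Nid2 and Lamb2. On this scale Lama1 went from the next to last place to the place after Nid1 and Lamc1, and Lamb2 from the first place to a level that its replicates did not separate from that of Lamb1. Part of this order depended on the length used, a comparison added after the data were seen. By coding length Lamc1 (9481 per kb) and Lamb2 (9211) overlapped at the top in the controls, and under tamoxifen Lama1 (2262) stood below Lamb1 (3789.5) and Nid2 (2904), with Lamb1 above Lamb2 (2030) in both libraries. Lama1 kept place 9 of 10 in the controls by all 3 lengths tried, and took place 3 by the union of exons, 5 by the longest transcript and 6 by coding length under tamoxifen.

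Shares of the summed alpha chains within a library need no scaling between libraries. Sums of chains here and below took only the members. Lama3, the alpha-3 chain, was therefore left out, with group means of 171 normalized counts per kb in the controls and 32.1 under tamoxifen. Lama1 made up 3.62% and 3.15% of the alpha chains per kb in the controls, and 57.8% and 59.1% under tamoxifen. Lama5 made up 64.4% and 63.7% in the controls and 23.2% and 15.9% under tamoxifen. Lama4 went from 30.9% and 31.3% to 15.7% and 17.2%, and Lama2 from 1.04% and 1.81% to 3.28% and 7.75%. In both controls Lama4 and Lama5 therefore held nearly the whole of this alpha pool, and in both tamoxifen libraries Lama1 was its leading chain. The order of Lama4 and Lama5 in the controls depended on the length used, with 55.1% and 55.4% for Lama4 against 41.3% and 40.4% for Lama5 by coding length. By that length the share of Lama1 under tamoxifen was 44.8% and 43.6%, still the highest of the alpha chains in both libraries.

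The ratio of Lama1 plus Lama2 to Lama4 plus Lama5 per kb was 0.0489 and 0.0522 in the controls and 1.57 and 2.01 under tamoxifen. The groups were far apart, with a difference of 5.14 on the log2 scale (SD within groups 0.19, exact permutation p = 0.333, the smallest this design allows). All 6 chain ratios computed here separated the groups and had that same p, and some of them share genes. For single genes, the groups did not overlap in 82.3% of all genes tested. Lama4 to Lama5 was 0.480 and 0.492 in the controls and 0.673 and 1.08 under tamoxifen, a log2 difference of 0.81, which was 0.47 without tamoxifen replicate 2. Among the beta chains, Lamb1 to Lamb2 was 0.0746 and 0.0770 in the controls and 0.862 and 1.43 under tamoxifen, a log2 difference of 3.87. Lamb1 made up 6.94% and 7.15% of the beta chains in the controls, and 46.3% and 58.8% under tamoxifen. Tamoxifen replicate 1 kept more Lamb2 than Lamb1 per kb and tamoxifen replicate 2 the reverse, though by coding length Lamb1 led in both (59.8% and 71.2%).

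**Figure D2:**
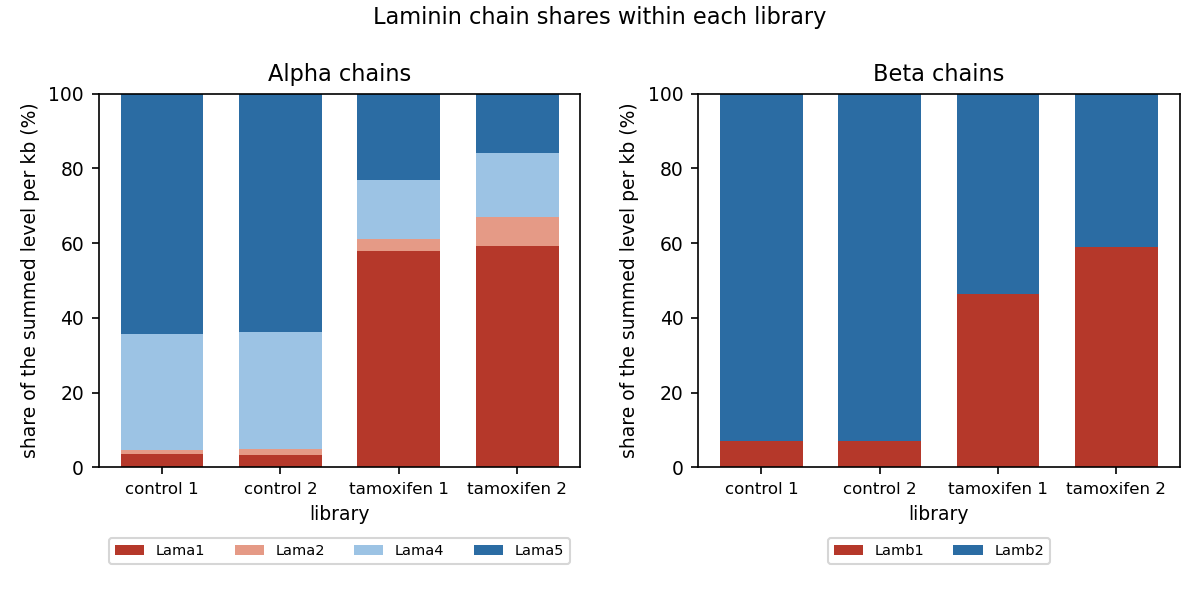
Share (%) of each gene in the summed level per kb of the members' alpha chains (left) and beta chains (right), in each library. Lama1 took 57.8% and 59.1% of the alpha chains in the tamoxifen libraries against 3.62% and 3.15% in the controls, and Lamb1 took 46.3% and 58.8% of the beta chains against 6.94% and 7.15%.

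Summed alpha chains came to 5483 and 5323 normalized counts per kb in the controls and 3892 and 3483 under tamoxifen. Summed beta chains came to 8519 and 9048 in the controls and 4117 and 3370.2 under tamoxifen. Over Lamc1, the alpha sum was 1.42 and 1.26 in the controls and 0.973 and 0.956 under tamoxifen, and the beta sum 2.20 and 2.15 in the controls and 1.03 and 0.925 under tamoxifen. By coding length the alpha sum over Lamc1 was 0.968 and 0.871 in the controls and 0.562 and 0.580 under tamoxifen, and the beta sum 1.11 and 1.09 against 0.661 and 0.635. Whether a sum lay above or below Lamc1 thus depended on the length, whereas both ratios were lower in both tamoxifen libraries by either length. The log2 differences were -0.47 for the alpha sum and -1.16 for the beta sum by the union of exons, and -0.69 and -0.76 by coding length. Nid1 to Nid2 was 1.49 and 1.65 in the controls and 2.04 and 2.27 under tamoxifen, a log2 difference of 0.45, so within each library the balance moved toward Nid1.

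The members were also set against the summed endothelial markers of the same library, whose mean log2 level fell by 2.90. The log2 ratio of Lama5 to that sum was -4.31 and -4.41 in the controls and -3.86 and -3.64 under tamoxifen, a difference of 0.61. For Lamb2 the difference was 0.68, for Hspg2 1.38 and for Lama4 1.42. The differences were 2.51 for Nid2, 2.82 for Lamc1, 2.96 for Nid1, 4.22 for Lama2, 4.55 for Lamb1 and 6.46 for Lama1. For all 10 members, those that fell included, the ratio was higher in both tamoxifen libraries than in both controls, as it was for 93.6% of all 20485 genes tested, so this does not set the members apart. Tamoxifen replicate 2, which had the lower endothelial sum, was the lower tamoxifen library for all members but Lama2 and Lamb1, those that rose or did not pass included, and for Lama4 by little. The part of endothelial content in these values was not tested.

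Laminin chains outside the members were also called in both directions. Lama3, the alpha-3 chain of epithelial laminins, had 2393 and 2019 normalized counts in the controls and 449 and 378 under tamoxifen (log2 fold change -2.41). Lamc3, the gamma-3 chain and the most abundant gene of the list, fell from 4968 and 5427 to 1566 and 2294 normalized counts (log2 fold change -1.45, and under the size limit with equal totals, at -0.98). Lamb3 was low throughout, with 4.11 and 28.8 normalized counts in the controls and 65.0 and 54.6 under tamoxifen. Its log2 fold change was 2.30 (limma, BH-adjusted p = 0.0469), but 1.02 without control replicate 1, and it passed in 4 of 13 alternatives (BH-adjusted p from 0.000124 to 0.331).

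Type IV collagen is the other network-forming protein of basement membranes, secreted as trimers of paired chains. Of its 6 chains 2 were called higher, 3 lower and 1 was not called, with a median log2 fold change of -0.9998 (-0.53 with equal totals, -0.14 with quantiles made equal). Col4a1, the most abundant, had 172777 and 197344 normalized counts in the controls and 79648 and 72286 under tamoxifen (log2 fold change -1.28). Its partner Col4a2 had 151601 and 176768 in the controls and 59699 and 47818 under tamoxifen (-1.62). After quantile normalization neither passed (log2 fold changes -0.01 and -0.28), with equal totals Col4a1 was under the size limit (-0.81), and without any 1 of the 4 libraries Col4a1 did not pass (limma, BH-adjusted p from 0.0905 to 0.186, with a range of 2.00e-10 to 0.983 over all its alternatives). Col4a2 did not pass without control replicate 2 or without either tamoxifen library (log2 fold changes -1.50, -1.78 and -1.46). Col4a5 and Col4a6 rose by log2 fold changes of 2.75 and 2.34. Their control values were 245 and 439 normalized counts for Col4a5 and 56.2 and 95.1 for Col4a6. Neither gene passed without tamoxifen replicate 1 or without tamoxifen replicate 2. Col4a3 fell (-2.08), whereas Col4a4 had overlapping groups (-0.72, and 0.02 without tamoxifen replicate 1) and passed after quantile normalization only (-1.77).

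Among 14 other basement membrane genes 5 were called higher and 6 lower, and 3 were not called. Their median log2 fold change was -0.83 (-0.36 with equal totals, -0.41 with quantiles made equal). Fn1, the gene of fibronectin and the most abundant, had 325531 and 341418 normalized counts in the controls and 171817 and 110722 under tamoxifen. The groups were apart, but the difference did not pass (log2 fold change -1.27, limma, BH-adjusted p = 0.0598, under 0.05 in 4 of 14 alternatives with a range of 7.01e-06 to 0.339). Smoc1, a calcium-binding matrix protein, had the highest rise called in that list (log2 fold change 5.15, from 24.7 and 56.3 to 1178 and 1579 normalized counts), although without tamoxifen replicate 2 it narrowly did not pass (4.94). Hmcn1, the gene of hemicentin 1, had the largest fall (-2.82, from 64509 and 46601 to 10178 and 5953).

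Receptors for laminin include integrins that pair an alpha subunit with beta-1 or beta-4, dystroglycan, and Bcam, which binds the alpha-5 chain. Of 7 receptor genes 2 were called higher, 3 lower and 2 were not called, with a median log2 fold change of -0.87 (-0.40 with equal totals, -0.06 with quantiles made equal). Bcam fell from 27207 and 33221 normalized counts to 5091 and 3098 (log2 fold change -2.92), close to the median of -2.88 of the endothelial markers. Itga6 fell from 47734 and 44077 to 15371 and 12081 (-1.75) and Itga3 from 4584 and 4966 to 2127 and 1632 (-1.36), but Itga6 was under the size limit after quantile normalization (-0.96) and Itga3 with equal totals (-0.89). Itga7, the laminin receptor subunit of muscle and mural cells, rose from 333 and 456 to 1424 and 2950.4 (2.39), though without tamoxifen replicate 2 it narrowly did not pass (1.87). Itgb4 rose from 153 and 191 to 499 and 531 (1.58), but did not pass after quantile normalization (0.57) or without tamoxifen replicate 1 or 2. Itgb1, the most abundant of the list, passed the adjusted p but not the size limit (-0.87, from 42181 and 38734 to 24132 and 20370.0), and it did not pass under either other scaling or without any 1 library. Dag1, the gene of dystroglycan, had 13677 and 15047 normalized counts in the controls and 17271 and 19679 under tamoxifen, a log2 fold change of 0.36 that did not pass (limma, BH-adjusted p = 0.133) but did with equal totals (0.83) or quantile normalization (1.05).

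**Figure D3:**
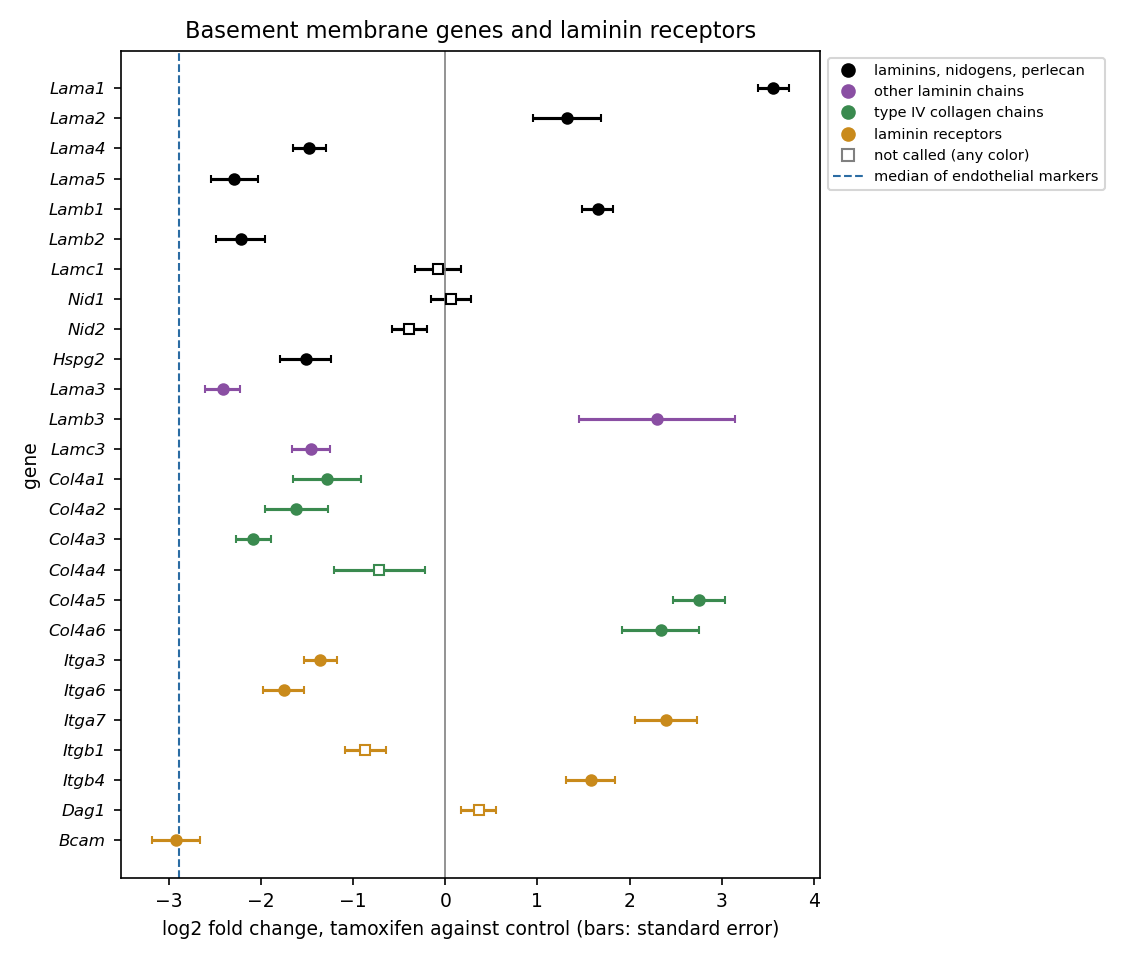
Log2 fold change of tamoxifen against control for the 10 members, 3 other laminin chains, 6 type IV collagen chains and 7 laminin receptors, with the standard error from limma as bars, open squares for genes not called and a dashed line at the median of the endothelial markers (-2.88). In the deposited scaling Bcam (-2.92) lay at that line, the members that fell lay between it and 0, and Lama1 (3.56) was farthest to the right.

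Dystroglycan binds the alpha-1 and alpha-2 chains through sugars added by a set of glycosylation enzymes. Of 8 such genes 7 were tested and 6 of those were not called, with a median log2 fold change of -0.22 (0.25 with equal totals, -0.34 with quantiles made equal). Pomgnt1, the most abundant, had a log2 fold change of -0.46, which was 0.01 with equal totals and passed the adjusted p in 6 of 14 alternatives. Of 10 enzymes that build heparan sulfate, the sugar that perlecan carries, 2 were called higher, 2 lower and 6 were not called, with a median of -0.13 (0.34 with equal totals, 0.08 with quantiles made equal). Xylt1, which starts the chain, rose from 189 and 207 to 1618 and 2755 normalized counts (3.41), and Extl3, the most abundant, fell from 36616 and 38623 to 11307 and 8419 (-1.95).

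Levels of markers of other cell types that can make these laminins are given beside the members. All 8 fibroblast markers were called higher, with a sum of 2331 and 3328 normalized counts in the controls and 70199.5 and 60747 under tamoxifen, led by Col1a1 (log2 fold change 5.95). All 7 astrocyte markers were higher, with sums of 27291 and 31801 in the controls and 135572 and 287570.1 under tamoxifen, led by Slc1a2 (2.87), while Aqp4 changed most (3.89). Of 11 mural markers 3 were called higher and 8 were not called. Their sums overlapped between the groups, with 34019 and 63639.8 in the controls and 44304 and 88042 under tamoxifen. Their most abundant gene, Rgs5, had overlapping groups (0.01, or -0.35 without control replicate 1 and -0.52 without tamoxifen replicate 2), and Cnn1 rose most (1.90). Of 7 choroid plexus markers 6 were higher, with sums of 985 and 3507 in the controls and 9337 and 46319 under tamoxifen, most of it Ttr (3.45), and Otx2 rose most (5.46). Without tamoxifen replicate 2, Slc1a2 (2.29), Ttr (2.17), Otx2 (5.12) and Cnn1 (1.51) did not pass, nor did Ttr (4.72), Otx2 (5.79) and Cnn1 (2.29) without tamoxifen replicate 1 or Cnn1 (1.45) without control replicate 1. Cnn1 also did not pass after quantile normalization (0.96), nor Ttr without the mean-variance trend. In each group the library with more Lama2 was also the one with the higher mural, astrocyte and choroid plexus sums. The fibroblast, Schwann cell, leukocyte, endothelial, pluripotency and endoderm sums did so among the controls only, and the skeletal muscle sum in neither group. With 2 libraries a group, a shared order can arise easily, and it was not tested.

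Lama1 and Lamb1 are also known from early embryonic cells and parietal endoderm. All 10 pluripotency markers were called higher, with sums of 108 and 170.2 normalized counts in the controls and 58195 and 45222 under tamoxifen, led by Tdgf1 (8.85), and Sall4 rose most (9.77). Of 9 markers of primitive and parietal endoderm 7 were higher and 2 lower. The latter were Sox7 (-2.08) and the most abundant, Dab2 (-1.34, and under the size limit at -0.87 with equal totals and -0.78 after quantile normalization), which endothelial cells also express, and the sum went from 24561 and 24625 to 14342 and 11200.4. Gata4, with at most 3 reads in either control, was at least 299.7-fold higher under tamoxifen, and Foxa2, Amn and Afp were also at or below 3 reads in both controls. The median log2 fold change of that list was 4.87, and 4.45 with such genes at their lower bound.

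Lama2 is known from muscle and Schwann cells. Of 6 skeletal muscle genes 5 were listed, 4 were tested and all 4 were higher, with sums of 16.4 and 3.75 normalized counts in the controls and 2269 and 1796 under tamoxifen. Acta1 led (7.28), Tnnt3 was at least 127-fold higher, and the defining gene Myod1 had 0 reads in both controls and 3.25 and 21.6 normalized counts under tamoxifen. Of 6 Schwann cell genes 3 were higher and 1 lower, with sums of 5506 and 5855 in the controls and 4941 and 4796 under tamoxifen. Pmp22, the most abundant, fell (-1.07, and under the size limit at -0.60 with equal totals and -0.85 after quantile normalization), and Sox10 rose most (5.11). Of 9 leukocyte genes 7 were higher, with sums of 1199 and 1970.0 in the controls and 110731 and 83022 under tamoxifen, led by S100a9 (8.58), with Mpo rising most (9.38). Ptprc is the gene of CD45, against which the cells were sorted according to the series design and the study's methods. It had 50.7 and 83.9 normalized counts in the controls and 1423 and 1119 under tamoxifen. The part of these cell types in the laminin, nidogen and perlecan values was not tested.

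Exons of 7 of the 10 members overlap a gene on the opposite strand. The library kit marks strand, but the strand setting of the counting is not given in the sources used here, so reads of such pairs may be shared. Rtraf, which overlaps Nid2 over 602 bases, had 16.2% and 16.95% of the normalized counts of Nid2 in the controls and 23.4% and 27.5% under tamoxifen. Dld, which overlaps Lamb1 over 303 bases, had 48.3% and 40.7% of those of Lamb1 in the controls and 14.9% and 14.4% under tamoxifen. Adrm1, which overlaps Lama5 over 85 bases, had 5.35% and 5.86% of those of Lama5 in the controls and 20.2% and 27.6% under tamoxifen. Rtraf, Dld and Adrm1 were not called (log2 fold changes 0.22, 0.05 and -0.21). Fam229b, which overlaps Lama4 over 806 bases, had at most 2.49% of the counts of Lama4 in a library.

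Promoter windows of 6 members were matched in RefSeq (GRCm38.p6), each with 250 bases before and 50 after a gene start, namely Lama2, Lama5, Lamb1, Lamb2, Nid1 and Hspg2. No entry was used for Lama1, Lama4, Lamc1 and Nid2. Both beta chains are shown because they moved in opposite directions, and Lama5 and Hspg2 because they fell together with Lamb2. Capitals mark GGGCGG, the GC box, and CAGGTG, an E-box that Snail factors can bind, each on either strand (CCGCCC and CACCTG). The GC box was in 35.7% of all 32851 promoter windows listed, and the E-box in 20.2%. The AP-1 motif TGACTCA (5.20% of windows) and TATAAA (13.6%) were searched in the same way on both strands.
Lamb1 (chr12:31265043-31265342, plus strand): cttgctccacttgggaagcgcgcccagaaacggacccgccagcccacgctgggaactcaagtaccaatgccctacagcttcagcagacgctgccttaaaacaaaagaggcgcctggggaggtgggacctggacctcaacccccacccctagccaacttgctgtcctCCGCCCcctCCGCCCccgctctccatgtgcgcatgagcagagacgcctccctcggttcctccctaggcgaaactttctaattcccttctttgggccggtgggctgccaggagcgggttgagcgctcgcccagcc
Lamb2 (chr9:108479612-108479911, plus strand): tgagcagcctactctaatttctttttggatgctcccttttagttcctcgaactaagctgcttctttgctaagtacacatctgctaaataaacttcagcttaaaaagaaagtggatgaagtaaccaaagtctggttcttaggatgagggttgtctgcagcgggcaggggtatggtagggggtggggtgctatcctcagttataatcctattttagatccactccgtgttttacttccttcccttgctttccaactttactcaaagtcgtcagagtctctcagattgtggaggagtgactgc
Lama5 (chr2:180225810-180226109, minus strand): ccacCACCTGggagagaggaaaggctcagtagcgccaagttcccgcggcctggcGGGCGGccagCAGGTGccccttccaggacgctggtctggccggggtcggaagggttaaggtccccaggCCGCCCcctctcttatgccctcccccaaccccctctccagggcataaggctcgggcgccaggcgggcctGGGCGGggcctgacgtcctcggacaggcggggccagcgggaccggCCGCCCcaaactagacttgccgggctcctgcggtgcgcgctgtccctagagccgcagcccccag
Hspg2 (chr4:137468553-137468852, plus strand): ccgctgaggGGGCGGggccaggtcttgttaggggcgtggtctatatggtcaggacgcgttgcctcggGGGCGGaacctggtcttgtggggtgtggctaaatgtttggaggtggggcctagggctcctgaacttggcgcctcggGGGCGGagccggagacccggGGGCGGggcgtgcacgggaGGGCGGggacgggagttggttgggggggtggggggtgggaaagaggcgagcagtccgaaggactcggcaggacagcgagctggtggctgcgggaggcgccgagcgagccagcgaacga
The window of Lamb1 held 2 GC boxes, at 63.7% G and C, whereas that of Lamb2 held 0 of the motifs searched, at 44.0% G and C, against a median of 52.7% over all windows. Lama5 held 4 GC boxes and 2 E-boxes, and Hspg2 held 5 GC boxes. Among the windows not shown, Lama2 and Nid1 held 1 GC box each. TGACTCA and TATAAA were in none of the 6 windows. A match describes letters only, and its absence says only that these letters are not in this window.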

How the data were processed

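Per the submitters' notes and the study's methods, reads were aligned with STAR 2.7.10a to GRCm39 and counted in the same step, after which DESeq2 1.36.0 served the authors for normalization of genes above a low-count limit. Each deposited value is a signal, the reads on a gene divided by a library factor. Dividing each column by its smallest value above 0 gave whole reads for 100% of values, within 0.01 reads. A gene at or below 3 reads in both libraries of a group was taken as at the floor, and its fold is given as a lower bound, for counting error only. limma 3.58.1 in R 4.3.3 (mean-variance trend, pseudocount 1) was fitted to all tested genes and checked on simulated data. The alternatives were recovered reads in edgeR 4.0.16 or DESeq2 1.42.0, pseudocounts of 0.5 and 5, no filter or one at a mean of 100, equal totals, quantile normalization, no trend, a replicate block and each library left out. Per-kilobase levels used GENCODE M39 exons. Genes named are all members, Mgp, all other laminin chains, type IV collagen chains and laminin receptors, and in each other list the most abundant gene and the called gene with the largest change in each direction. Some genes under these rules are not reported here. Other genes were named after their values were seen. The members and lists were chosen with earlier results of these data known.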

Additional observations from a re-analysis of the deposited data

How the results depend on the processing

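Of 53 genes named by rule, 29 kept their direction and their side of the adjusted p under all alternatives run, among them 5 members (Lama1, Lama4, Lama5, Lamb1 and Lamb2). Signs changed for 7 genes: with equal totals for Mgp (0.0786), Lamc1 (0.39), Nid2 (0.0809) and Pomgnt1 (0.0149), after quantile normalization for Lamc1 (1.05) and Nid2 (0.23), and with a library left out for Nid1 (-0.0105 to 0.14), Col4a4 (-1.45 to 0.0184) and Rgs5 (-0.52 to 0.54, with -0.35 without control replicate 1). The cause was not tested. Quantile normalization left 2 members called lower. The ratio of Lama1 plus Lama2 to Lama4 plus Lama5 had log2 differences of 4.79 by transcript length and 4.73 by coding length, alpha sum to Lamc1 -0.59 and -0.69, and beta sum to Lamc1 -0.79 and -0.76. All genes called numbered 5934 with a filter at a mean of 100, 9241 with edgeR, 8739 with DESeq2, and 4147 to 9700 with a library left out, where the lone library is assumed to vary like the other group. With the replicate number as a block 9525 genes were called, with 3 members higher and 4 lower; same-numbered libraries deviated with a correlation of 0.0251 across genes, so the numbers were not taken as pairs. With 2 libraries a group, each of pooled mice, p-values measure the spread between pools only.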
